A study of Mus musculus with 6 samples.

Results

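The CCN family genes Ccn1 to Ccn5 encode small secreted proteins of the extracellular matrix. They were chosen by name, as the listed family members, with earlier results of these data known. All 5 were found among the 29385 genes measured in mouse hearts. RNA was measured by poly-T captured RNA sequencing in 6 heart libraries, 2 in each of 3 groups. Myh6 RH/RQ mice given AAV-hpCas13d, an adeno-associated virus that carries a form of the RNA-guided RNA-cutting enzyme Cas13d, were set against Myh6 RH/RQ mice given vehicle and Myh6 RH/+ mice given vehicle. Hearts were taken 12 months after administration to newborns. Every group carried an altered allele of Myh6, the gene of the main myosin heavy chain of the adult mouse heart, and no library came from a heart without one. The labels do not spell out the RH and RQ alleles, the promoter that drives hpCas13d, its guide or the sex of the mice. Whether both libraries of a group are from different mice is not stated either. Each p-value below therefore rests only on spread between these libraries, which may be technical.

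CCN proteins sit between cells and matrix, where they bind integrins, heparan sulfate proteoglycans and growth factors and change how cells answer to them. Ccn1 (also called Cyr61) and Ccn2 (also called Ctgf) are fast-responding genes known as targets of the YAP and TAZ coactivators with TEAD factors and, for Ccn2, of TGF-beta signalling. Ccn2 is widely used as a marker of fibrosis and of stretched or growing heart muscle. Ccn3 (Nov) and Ccn4 (Wisp1) are further secreted members. Ccn5 (Wisp2) lacks the carboxy-terminal module of the other members and is known in mouse hearts for opposing fibrosis.

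Sequence stretches of the 5 coding regions are shown because they display part of the cysteine framework that defines the family and how far the members differ around it. Each line holds 48 bases of the coding strand around the shared cysteine-rich motif of the insulin-like growth factor binding protein module, taken from GENCODE transcripts on GRCm38, with the 4 cysteine codons in capitals.
Ccn1: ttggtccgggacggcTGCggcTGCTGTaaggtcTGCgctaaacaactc
Ccn2: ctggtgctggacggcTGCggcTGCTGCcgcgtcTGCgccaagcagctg
Ccn3: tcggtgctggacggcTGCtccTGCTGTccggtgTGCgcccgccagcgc
Ccn4: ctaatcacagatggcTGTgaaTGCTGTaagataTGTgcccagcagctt
Ccn5: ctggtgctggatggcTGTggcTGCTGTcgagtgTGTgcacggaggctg

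Identity over these bases ran from 54.2% between Ccn3 and Ccn4 to 77.1% between Ccn2 and either Ccn1 or Ccn5. The whole coding regions hold 379 codons in Ccn1, 348 in Ccn2, 354 in Ccn3, 367 in Ccn4 and 251 in Ccn5, the shortest. Of those codons 29 in Ccn5 and 38 to 40 in each of the others encode cysteine. Over all 10 pairs of members the longest exact stretch shared by their transcripts was 10 to 28 bases, so no pair shared a stretch of 50 bases.

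In the GRCm38 annotation (GENCODE M21), Ccn1 (ENSMUSG00000028195) lies at chr3:145646976-145649981 on the minus strand and Ccn2 (ENSMUSG00000019997) at chr10:24595442-24598683 on the plus strand. Ccn3 (ENSMUSG00000037362) lies at chr15:54745702-54754039, Ccn4 (ENSMUSG00000005124) at chr15:66891320-66923201 and Ccn5 (ENSMUSG00000027656) at chr2:163820861-163833146, all 3 on the plus strand. The main transcript of each has 5 exons. Ccn2 overlaps an antisense transcript, Gm15270 (chr10:24549441-24597108). A strand setting of the counting is not given in the sources used here, so reads of Ccn2 and Gm15270 cannot be told apart with certainty. Gm15270 itself held 0.80 and 1.48 CPM in treated RH/RQ hearts, 1.10 and 0.825 CPM in RH/RQ vehicle hearts and 1.21 and 1.08 CPM in RH/+ vehicle hearts, with no call in any comparison. Ccn3 transcripts share stretches of 50 bases with 16 other annotated genes, and its values carry that uncertainty. Ccn1, Ccn4 and Ccn5 share none.

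CPM scale the counts of a gene by the total reads of its library, and libraries held from 36269261 to 51017058 reads. Where no read was counted, up to 3 reads remain possible, or 0.0588 to 0.0827 CPM over the libraries. The reads behind a value ranged from 1768 to 2644 for Ccn1, 1484 to 3261 for Ccn2, 117 to 217 for Ccn3, 14 to 62 for Ccn4 and 138 to 417 for Ccn5. The X-inactivation gene Xist held 299 and 326 CPM in treated RH/RQ hearts, 0.274 and 0.0516 CPM in RH/RQ vehicle hearts and 280 and 265 CPM in RH/+ vehicle hearts. The Y-linked gene Ddx3y held 85.2 and 85.2 CPM in RH/RQ vehicle hearts and no read in the other 4 libraries. The sex-linked pattern of the RH/RQ vehicle libraries therefore cannot be told apart from either comparison that uses them, while treated RH/RQ and RH/+ vehicle libraries share a pattern. Myh6 held 14297 and 15258 CPM in treated RH/RQ hearts, 15066 and 17720 CPM in RH/RQ vehicle hearts and 14786 and 18251 CPM in RH/+ vehicle hearts, and was not called. The tables do not separate its alleles. The 8 markers of ventricular muscle summed to 56139 and 55680 CPM in treated RH/RQ hearts and 51736 and 54297 CPM in RH/RQ vehicle hearts. In RH/+ vehicle hearts the sums were 57491 and 61636 CPM. By limma 0 of the 8 were called in any comparison. In RH/RQ vehicle against RH/+ vehicle hearts 2 were lower at an unadjusted limma p under 0.05. There edgeR called 1 lower and DESeq2 4, beside 394 and 463 of all 16804 genes. In treated RH/RQ against RH/+ vehicle hearts DESeq2 called 1 lower, beside 192 of all genes.

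In treated against vehicle RH/RQ hearts, Ccn2 was the family member called higher and Ccn5 the member called lower. The sex-linked pattern divides those libraries in the same way as the treatment. Among RH/RQ hearts, Ccn2 averaged 76.7 ± 13.2 CPM with AAV-hpCas13d and 43.0 ± 1.37 CPM with vehicle, while Ccn5 averaged 4.46 ± 0.926 CPM with AAV-hpCas13d and 8.78 ± 0.855 CPM with vehicle (SD, n = 2 each). Ccn1, Ccn3 and Ccn4 did not pass the test in that comparison, with ratios of means of 1.23, 1.26 and 0.377. The ratio was 1.78 for Ccn2 and 0.508 for Ccn5, so the calls do not follow the size of the ratio. Set against RH/+ vehicle hearts, Ccn5 rose in RH/RQ vehicle hearts, and Ccn1 and Ccn2 rose in treated RH/RQ hearts. A call is an adjusted p under 0.05 from limma on log2(CPM + 1), fitted over all 6 libraries and adjusted over the 16804 genes that passed a filter on low counts. All 5 members passed that filter. The spread that limma uses for a gene is drawn partly from other genes in the same libraries, with 22.4 degrees of freedom for each member.

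**Figure D1:**
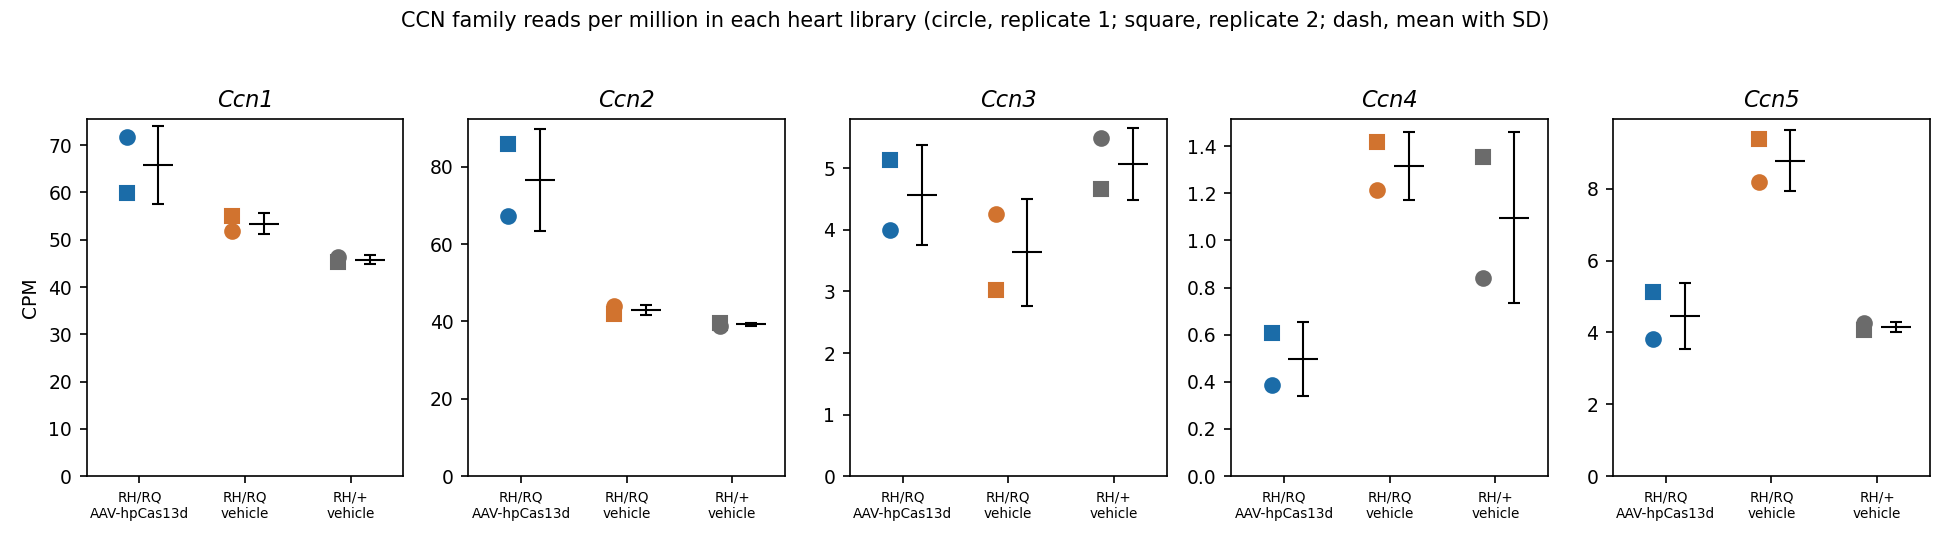
CPM of each CCN member (vertical axis, from 0, a separate scale for each gene) in the 2 libraries of RH/RQ AAV-hpCas13d, RH/RQ vehicle and RH/+ vehicle hearts, with the mean and SD as a dash and bars. Both treated values of Ccn2, 67.3 and 86.0 CPM, lie above all 4 vehicle values, and both RH/RQ vehicle values of Ccn5, 8.17 and 9.38 CPM, lie above the other 4.

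Ccn2 held 67.3 and 86.0 CPM in treated RH/RQ hearts, 44.0 and 42.0 CPM in RH/RQ vehicle hearts, and 39.0 and 39.5 CPM in RH/+ vehicle hearts. The treated libraries are the high ones, and no pair of groups overlaps. The log2 fold change was 0.81 (SE 0.11, adjusted p = 9.23e-05) in treated against vehicle RH/RQ hearts, a ratio of means of 1.78. It was 0.94 (SE 0.11, adjusted p = 1.74e-05) in treated RH/RQ against RH/+ vehicle hearts. Between the vehicle groups, RH/RQ against RH/+, the log2 fold change was 0.13 (95% interval -0.10 to 0.36, adjusted p = 0.615), which did not pass. Treated replicate 2 was higher than treated replicate 1, and without replicate 2 the fold change over RH/RQ vehicle hearts was 0.63 (adjusted p = 0.00136). The calls of Ccn2 were lost only when all 29385 genes were fitted with no filter on low counts, where the adjusted p was 0.129 against RH/RQ vehicle and 0.121 against RH/+ vehicle.

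Ccn1, the other abundant member, held 71.7 and 59.9 CPM in treated RH/RQ hearts, 51.8 and 55.0 CPM in RH/RQ vehicle hearts, and 46.4 and 45.2 CPM in RH/+ vehicle hearts. The groups do not overlap, with treated libraries high and RH/+ libraries low. Treated RH/RQ hearts averaged 65.8 ± 8.29 CPM and RH/+ vehicle hearts 45.8 ± 0.862 CPM (SD, n = 2 each). The log2 fold change was 0.51 (SE 0.10, adjusted p = 0.00622). That call was lost without treated replicate 1 (adjusted p = 0.0842) and without RH/+ vehicle replicate 2 (adjusted p = 0.0516). Against RH/RQ vehicle hearts the log2 fold change was 0.29 (95% interval 0.08 to 0.51, adjusted p = 0.202), and it passed without treated replicate 2 (adjusted p = 0.0301). Between the vehicle groups, RH/RQ against RH/+, it was 0.22 (95% interval 0.001 to 0.43, adjusted p = 0.289).

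The replicate in which Ccn1 was high was not the one in which Ccn2 was high. Treated replicate 1 held the highest Ccn1 of the 6 libraries and treated replicate 2 the highest Ccn2.

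Ccn5 held 3.80 and 5.12 CPM in treated RH/RQ hearts, 8.17 and 9.38 CPM in RH/RQ vehicle hearts, and 4.25 and 4.06 CPM in RH/+ vehicle hearts. The RH/RQ vehicle libraries are the high ones, and the values of treated RH/RQ and RH/+ hearts overlap. The log2 fold change was -0.85 (SE 0.17, adjusted p = 0.00751) in treated against vehicle RH/RQ hearts. It was 0.92 (SE 0.17, adjusted p = 0.00179) in RH/RQ vehicle against RH/+ vehicle hearts. In treated RH/RQ against RH/+ vehicle hearts it was 0.07 (95% interval -0.29 to 0.43, adjusted p = 0.893), with a sign that turned under other scalings. The call in treated against vehicle RH/RQ hearts was lost without treated replicate 1 (adjusted p = 0.104) and without RH/RQ vehicle replicate 2 (adjusted p = 0.121).

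Ccn4, the scarcest member, held 0.386 and 0.606 CPM in treated RH/RQ hearts, 1.22 and 1.42 CPM in RH/RQ vehicle hearts, and 0.840 and 1.35 CPM in RH/+ vehicle hearts. These values rest on 14 and 23 reads in treated RH/RQ hearts, 62 and 55 reads in RH/RQ vehicle hearts, and 32 and 54 reads in RH/+ vehicle hearts. Treated libraries lie below all 4 vehicle libraries, whose groups overlap. The log2 fold change in treated against vehicle RH/RQ hearts was -0.63 (95% interval -1.0 to -0.26, adjusted p = 0.0694), which did not pass. The scale of log2(CPM + 1) understates a change at such levels, where the ratio of means was 0.377. Tests with less of that shrinkage did not pass either. The log2 fold change was -1.45 by edgeR (adjusted p = 0.0991) and -1.46 by DESeq2 (adjusted p = 0.123). By limma on log2(CPM + 0.1) it was -1.27 (adjusted p = 0.0886). The value passed without RH/+ vehicle replicate 1 (adjusted p = 0.0477) and without RH/+ vehicle replicate 2 (adjusted p = 0.0472), and with CPM taken over nuclear genes (adjusted p = 0.0499). Against RH/+ vehicle hearts, treated RH/RQ hearts had a log2 fold change of -0.48 (95% interval -0.85 to -0.11, adjusted p = 0.177), and RH/RQ vehicle hearts one of 0.15 (adjusted p = 0.731).

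Ccn3 held 4.0 and 5.14 CPM in treated RH/RQ hearts, 4.25 and 3.02 CPM in RH/RQ vehicle hearts, and 5.49 and 4.66 CPM in RH/+ vehicle hearts. The RH/RQ vehicle values lie below the RH/+ values, and the treated values overlap both groups. No comparison passed. The log2 fold change was 0.27 (95% interval -0.11 to 0.66, adjusted p = 0.602) in treated against vehicle RH/RQ hearts. It was -0.13 (95% interval -0.51 to 0.26, adjusted p = 0.803) in treated RH/RQ against RH/+ vehicle hearts and -0.40 (95% interval -0.78 to -0.01, adjusted p = 0.269) in RH/RQ vehicle against RH/+ vehicle hearts.

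In counts, 1 of 5 members rose and 1 fell in treated against vehicle RH/RQ hearts, beside 2.05% of all genes called, 1.22% higher and 0.827% lower (205 and 139 genes). In treated RH/RQ against RH/+ vehicle hearts 2 of 5 rose and 0 fell, beside 2.86% of all genes called, 2.33% higher and 0.53% lower (391 and 89 genes). The third comparison, RH/RQ vehicle against RH/+ vehicle hearts, had 1 of 5 higher and 0 lower, beside 4.99% of all genes called, 3.48% higher and 1.51% lower (585 and 253 genes). The edgeR and DESeq2 tests on recovered reads also called 0 members lower in the comparisons with RH/+ vehicle, and at an unadjusted p under 0.05 limma put Ccn4 below RH/+ vehicle in treated hearts and Ccn3 below RH/+ vehicle in RH/RQ vehicle hearts. The split over all genes moved with the scaling. With TMM factors it was 168 higher and 199 lower in treated against vehicle RH/RQ hearts, 240 and 170 in treated RH/RQ against RH/+ vehicle hearts, and 534 and 400 in RH/RQ vehicle against RH/+ vehicle hearts. Leaving out a library moved the count over all genes too. In treated against vehicle RH/RQ hearts it was 661 without treated replicate 2, and 155 when RH/RQ vehicle replicate 2 was left out. In treated RH/RQ against RH/+ vehicle hearts it was 300 and 744 without treated replicates 1 and 2, and 206 without RH/+ vehicle replicate 1. Between the vehicle groups it was 503 and 482 without RH/RQ vehicle replicates 1 and 2, and 393 without RH/+ vehicle replicate 1. The median log2 fold change of the 5 members was 0.27, 0.07 and 0.15 in the same order of comparisons, beside 0.04, 0.08 and 0.04 over all genes. The 3 comparisons share libraries pairwise and are not independent of each other. The family was chosen with earlier results of these data known, so its counts are not independent of that choice. The authors' deposited table, which comes from 4 libraries at a time, lists Ccn2 and Ccn5 among its changed genes for treated over vehicle RH/RQ hearts (adjusted p = 1.11e-05 and 0.00392), Ccn2 for treated RH/RQ over RH/+ vehicle hearts and Ccn5 for RH/RQ vehicle over RH/+ vehicle hearts. For Ccn1 in treated RH/RQ over RH/+ vehicle hearts the authors' deposited table gives a log2 fold change of 0.41 with an adjusted p of 0.0312, and its shorter list does not hold that gene.

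**Figure D2:**
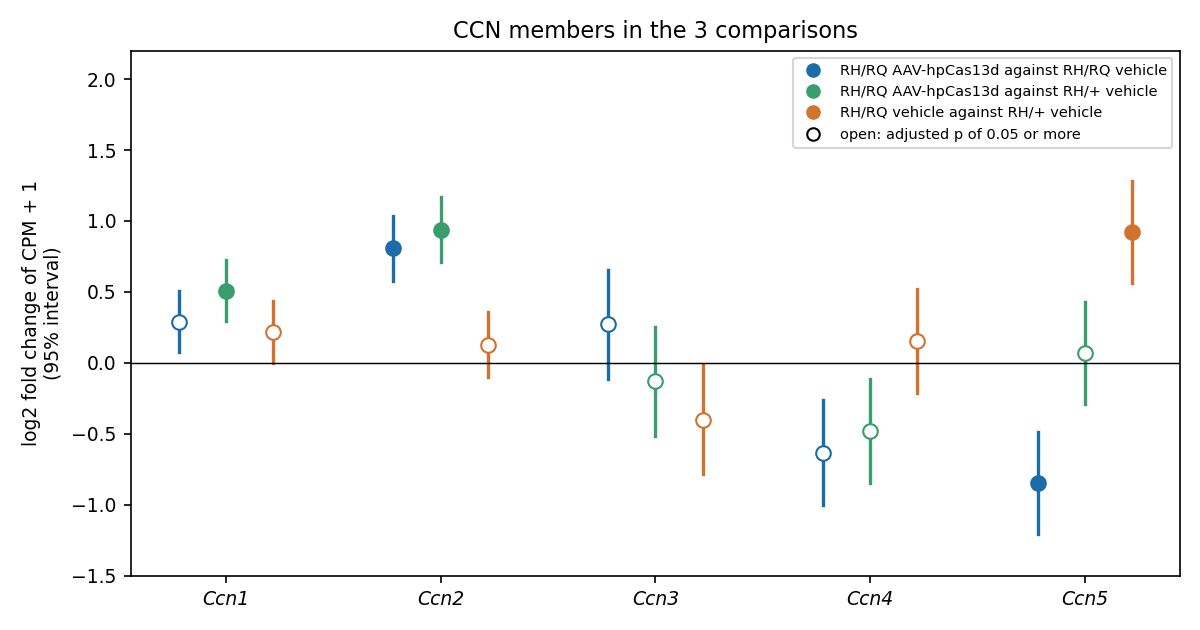
Log2 fold change of CPM + 1 (vertical axis) with its 95% interval for each CCN member in 3 comparisons, with filled points for an adjusted p under 0.05. Filled points stand at 0.81 and 0.94 for Ccn2, 0.51 for Ccn1, and -0.85 and 0.92 for Ccn5.

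The family's reads came mostly from Ccn1 and Ccn2, which together made up 94.4% and 93.1% of CCN reads in treated RH/RQ hearts, 87.5% and 87.5% in RH/RQ vehicle hearts, and 89.0% and 89.4% in RH/+ vehicle hearts. The 5 members summed to 147 and 157 CPM in treated RH/RQ hearts, 109 and 111 CPM in RH/RQ vehicle hearts, and 96.0 and 94.8 CPM in RH/+ vehicle hearts. Compared per kilobase of exons, levels followed the order Ccn1, Ccn2, Ccn5, Ccn3 and Ccn4, with means over the 6 libraries of 27.2, 18.5, 3.01, 1.54 and 0.174 CPM per kilobase. The first neighbours in that order overlapped in treated RH/RQ hearts, where Ccn1 ran from 29.7 to 35.5 and Ccn2 from 23.5 to 30.1 CPM per kilobase, and did not overlap in the vehicle groups. Ccn5 and Ccn3 did not overlap in any group, with 1.98 to 2.66 against 1.39 to 1.79 CPM per kilobase in treated RH/RQ hearts. Ccn6, the remaining family gene, held 1 and 2 reads in treated RH/RQ hearts, 1 and 5 in RH/RQ vehicle hearts, and 3 and 0 in RH/+ vehicle hearts, at or near the 3 reads that a count of 0 still allows.

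Set beside each other member within a library, Ccn2 stood higher in treated RH/RQ hearts against all 4. The ratio of Ccn2 to Ccn1 was 0.940 and 1.43 in treated RH/RQ hearts, 0.849 and 0.764 in RH/RQ vehicle hearts, and 0.839 and 0.875 in RH/+ vehicle hearts. Ccn2 exceeded Ccn1 in 1 library, treated replicate 2. The ratio of Ccn2 to Ccn5 was 17.7 and 16.8 in treated RH/RQ hearts, 5.38 and 4.48 in RH/RQ vehicle hearts, and 9.16 and 9.74 in RH/+ vehicle hearts. It separated all 3 groups, with RH/RQ vehicle hearts lowest. The ratio of Ccn2 to Ccn3 was 16.8 and 16.7 in treated RH/RQ hearts, 10.3 and 13.9 in RH/RQ vehicle hearts, and 7.10 and 8.48 in RH/+ vehicle hearts. The ratio of Ccn2 to Ccn4, which rests on the few Ccn4 reads, was 174 and 142 in treated RH/RQ hearts, 36.2 and 29.7 in RH/RQ vehicle hearts, and 46.4 and 29.2 in RH/+ vehicle hearts. With 2 libraries against 2, an exact two-sided permutation test of the mean log2 ratio cannot go below p = 0.333. That smallest value, which any 2 groups without overlap reach, was found in 10 of 12 comparisons. Adjusted over the 12 (Benjamini-Hochberg) it was 0.4. All 12 hold Ccn2 and they share libraries, so the count of 10 largely restates the Ccn2 values and decides nothing further. The exceptions were Ccn2 to Ccn1 (exact p = 0.667) and Ccn2 to Ccn4 (exact p = 1) in RH/RQ vehicle against RH/+ vehicle hearts, where the groups overlapped.

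**Figure D3:**
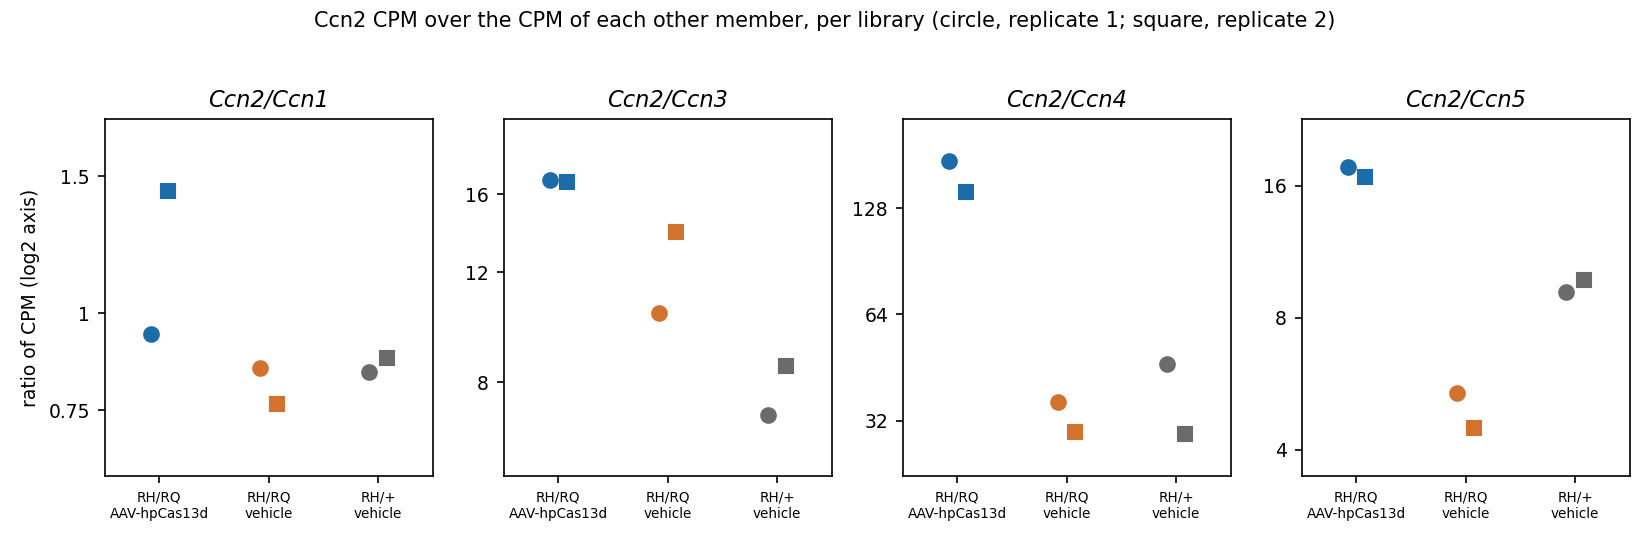
Ratio of Ccn2 CPM to the CPM of each other member (vertical axis, log2 scale) in each library. The treated libraries lie above all vehicle libraries in each panel, by little in the Ccn2 to Ccn1 panel (lowest treated value 0.940, highest vehicle value 0.875).

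Sequence before a gene's start was looked at because Ccn1 and Ccn2 are known YAP, TAZ and TEAD targets. In the RefSeq promoter table (GRCm38.p6) 1 of 5 members was matched, Ccn1, and Ccn2, Ccn3, Ccn4 and Ccn5 were not. The 250 bases before the Ccn1 start, chr3:145649986-145650235 read on the minus strand, are shown with a TEAD motif match and the TATA box letters in capitals.
Ccn1: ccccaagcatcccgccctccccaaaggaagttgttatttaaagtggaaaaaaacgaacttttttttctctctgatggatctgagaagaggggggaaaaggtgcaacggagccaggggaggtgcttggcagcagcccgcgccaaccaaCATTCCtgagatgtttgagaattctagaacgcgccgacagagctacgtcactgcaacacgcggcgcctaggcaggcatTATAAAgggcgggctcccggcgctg

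Motifs were searched on both strands. The TEAD letters GGAATG matched once, on the opposite strand, at bases -103 to -98 counted back from the start, and 12.6% of the 32851 windows of the same length hold them. The TATA letters TATAAA matched at -25 to -20 and are held by 12.4% of windows. The cyclic AMP response element core TGACG matched once (17.8% of windows), the SP1 letters GGGCGG matched in 2 places (32.7% of windows), and no match overlapped another. The AP-1 letters TGANTCA, held by 6.75% of windows, had 0 matches here. A match describes letters and not a bound site.

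Among the other YAP/TAZ and TEAD targets, a published signature drawn from cancer cells with the CCN members left out, 2 of 20 rose and 1 fell in treated against vehicle RH/RQ hearts, beside 2.05% of all genes called. The list median was 0.08 beside 0.04 over all genes. Igfbp3, a binding protein of insulin-like growth factors, averaged 46.0 ± 6.16 CPM in treated and 25.7 ± 1.52 CPM in vehicle RH/RQ hearts, and Nt5e, the ectoenzyme that makes adenosine, 27.6 ± 1.95 CPM in treated and 15.8 ± 1.12 CPM in vehicle RH/RQ hearts (SD, n = 2 each). Ccdc80, a matrix protein gene, fell to 105 ± 3.84 CPM in treated against 143 ± 4.0 CPM in vehicle RH/RQ hearts, a call lost without RH/RQ vehicle replicate 2 (adjusted p = 0.152). Against RH/+ vehicle hearts 5 of 20 rose in treated and 3 of 20 in vehicle RH/RQ hearts, and 0 fell in either. Of all genes, 2.33% were called higher and 0.53% lower in treated RH/RQ against RH/+ vehicle hearts. In RH/RQ vehicle against RH/+ vehicle hearts it was 3.48% higher and 1.51% lower. These shares, with 1.22% higher and 0.827% lower in treated against vehicle RH/RQ hearts, stand beside the counts of each list and marker set below. Ankrd1, a stretch-responsive gene of heart muscle, averaged 2631 ± 263 CPM in treated RH/RQ, 2456 ± 79.4 CPM in vehicle RH/RQ and 1295 ± 19.8 CPM in RH/+ vehicle hearts and was called in both comparisons with RH/+. The 5 calls in treated RH/RQ against RH/+ vehicle hearts became 3 without treated replicate 1 and 3 without RH/+ vehicle replicate 1.

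Of the 24 Hippo kinases, coactivators and TEAD partners, 0 rose and 1 fell in treated against vehicle RH/RQ hearts (list median -0.09). The 1 that fell was Amot, a YAP-binding scaffold, at 20.1 ± 0.216 CPM in treated and 30.7 ± 3.87 CPM in vehicle RH/RQ hearts, and the call was lost without RH/RQ vehicle replicate 2 (adjusted p = 0.283). Vgll2, a TEAD cofactor, averaged 3.91 ± 0.238 CPM in treated RH/RQ, 4.96 ± 1.44 CPM in vehicle RH/RQ and 0.614 ± 0.0522 CPM in RH/+ vehicle hearts, and rose in both RH/RQ groups against RH/+. It was the single called gene of 24 in treated RH/RQ against RH/+ vehicle hearts, where 0 fell. In RH/RQ vehicle against RH/+ vehicle hearts 3 of 24 rose and 0 fell. Amot was the second of these. Without treated replicate 1 the count was 5, and without treated replicate 2 it was 5. Tead1, the third, was lost when any of the 4 libraries was left out, with adjusted p between 0.104 and 0.323, and under TMM factors (adjusted p = 0.104).

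Of the 21 TGF-beta ligands, receptors, SMADs and early targets, 0 rose and 2 fell in treated against vehicle RH/RQ hearts (list median -0.06). Ltbp2, which binds matrix fibrils, averaged 6.66 ± 0.609 CPM in treated and 15.7 ± 4.54 CPM in vehicle RH/RQ hearts, and Thbs1, a matrix protein that activates latent TGF-beta, 22.3 ± 2.73 CPM in treated and 33.0 ± 1.59 CPM in vehicle RH/RQ hearts. Neither call held without RH/RQ vehicle replicate 2 (adjusted p = 0.0652 for Ltbp2 and 0.0876 for Thbs1). Thbs1 was also lost without treated replicate 2 (adjusted p = 0.108) and without RH/RQ vehicle replicate 1 (adjusted p = 0.146). Against RH/+ vehicle hearts 5 of 21 rose in treated RH/RQ hearts and 8 of 21 in RH/RQ vehicle hearts, with 0 lower. Of all genes, 2.33% and 3.48% were higher in the same order of comparisons, and 0.53% and 1.51% lower. The 8 became 5 without RH/RQ vehicle replicate 1, 4 without RH/+ vehicle replicate 1 and 4 without RH/+ vehicle replicate 2, and the 5 became 3 without treated replicate 1 or without RH/+ vehicle replicate 1. Thbs1 and Ltbp2 were called in both of these comparisons, and they kept those calls when each library was left out in turn.

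Of 17 receptors and co-receptors that CCN proteins bind, 1 rose and 0 fell in treated against vehicle RH/RQ hearts (list median -0.01). Sdc4, a heparan sulfate proteoglycan at cell contacts, held 19.0 and 23.8 CPM in treated RH/RQ hearts, 14.2 and 13.8 CPM in RH/RQ vehicle hearts, and 22.6 and 22.4 CPM in RH/+ vehicle hearts. Its RH/RQ vehicle values are the low ones, the reverse of Ccn5. The call in treated against vehicle RH/RQ hearts was lost without treated replicate 2 (adjusted p = 0.107) and without RH/RQ vehicle replicate 2 (adjusted p = 0.12). In RH/RQ vehicle against RH/+ vehicle hearts 3 of 17 rose and 1, Sdc4, fell, and without RH/+ vehicle replicate 1 the 3 became 0. Lrp1, an endocytic receptor of Ccn2, was among the higher ones at 263 ± 21.0 CPM in vehicle RH/RQ and 175 ± 23.7 CPM in RH/+ vehicle hearts, a call lost without RH/+ vehicle replicate 1 (adjusted p = 0.0529). In treated RH/RQ against RH/+ vehicle hearts 2 of 17 rose, Lrp1 and Itgb5, and 0 fell. Neither held without RH/+ vehicle replicate 1 (adjusted p = 0.0781 for Lrp1 and 0.369 for Itgb5), and Itgb5 was lost without treated replicate 1 (adjusted p = 0.0779), without RH/+ vehicle replicate 2 (adjusted p = 0.0660) and under TMM factors (adjusted p = 0.153).

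Extracellular partners of CCN proteins counted 16, of which 13 were tested. In treated against vehicle RH/RQ hearts 0 rose and 2 fell. Igf1, insulin-like growth factor 1, held 20.5 and 20.0 CPM in treated RH/RQ hearts, 33.0 and 38.4 CPM in RH/RQ vehicle hearts, and 15.1 and 14.7 CPM in RH/+ vehicle hearts. Like Ccn5 it was highest in RH/RQ vehicle hearts, but its treated values stayed above the RH/+ values. Slit3, a secreted guidance protein, averaged 8.99 ± 1.45 CPM in treated and 15.7 ± 1.72 CPM in vehicle RH/RQ hearts, a call lost without treated replicate 2 (adjusted p = 0.0534) and without RH/RQ vehicle replicate 2 (adjusted p = 0.163). In RH/RQ vehicle against RH/+ vehicle hearts 4 of 13 rose, with Igf1 and Slit3 kept when each library was left out, and in treated RH/RQ against RH/+ vehicle hearts 1 rose, the matrix proteoglycan gene Dcn. In both 0 fell. The 4 became 2 without RH/RQ vehicle replicate 1.

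Immediate early genes, fast-responding like Ccn1 and Ccn2, were set beside the family, and a link between them was not tested. Of 22 immediate early genes tested, 2 rose and 3 fell in treated against vehicle RH/RQ hearts, with a list median of -0.18. The transcription factor genes Atf3, Fosl2 and Jun fell, with Jun at 62.7 ± 9.51 CPM in treated and 94.7 ± 4.10 CPM in vehicle RH/RQ hearts and Atf3 at 3.37 ± 0.599 CPM in treated and 8.09 ± 0.0969 CPM in vehicle RH/RQ hearts. The calls of Klf2 and Klf6 were each lost without treated replicate 1 (adjusted p = 0.482 for Klf2 and 0.136 for Klf6), without RH/RQ vehicle replicate 2 (adjusted p = 0.492 and 0.488) and under TMM factors (adjusted p = 0.0527 and 0.0602). In RH/RQ vehicle against RH/+ vehicle hearts 9 of 22 rose and 0 fell (list median 0.44), among them Egr2 at 4.22 ± 0.275 CPM in vehicle RH/RQ and 0.873 ± 0.101 CPM in RH/+ vehicle hearts. In treated RH/RQ against RH/+ vehicle hearts 7 of 22 rose and 0 fell (list median 0.32), where edgeR and DESeq2 each called 1 lower. Zfp36, an RNA-decay factor, was among the higher ones at 29.3 ± 2.39 CPM in treated RH/RQ and 17.0 ± 0.327 CPM in RH/+ vehicle hearts. Of those 7 calls 2, Zfp36 and Egr2, were kept when each library was left out in turn. The count was 2 without treated replicate 1 and 4 without either RH/+ library.

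Of 15 genes of the SRF and MRTF axis, which links actin to transcription and also acts on Ccn1 and Ccn2, 1 rose and 0 fell in treated against vehicle RH/RQ hearts by limma, with 2 lower at an unadjusted p under 0.05, 0 lower by edgeR and 2 lower by DESeq2. The 1 that rose was Rhob, at 249 ± 36.1 CPM in treated and 189 ± 12.9 CPM in vehicle RH/RQ hearts, lost without treated replicate 1 (adjusted p = 0.392), without RH/RQ vehicle replicate 1 (adjusted p = 0.0613), without RH/RQ vehicle replicate 2 (adjusted p = 0.498) and under TMM factors (adjusted p = 0.0980). Acta2, smooth muscle actin, averaged 74.8 ± 1.92 CPM in treated RH/RQ, 84.7 ± 18.8 CPM in vehicle RH/RQ and 216 ± 36.2 CPM in RH/+ vehicle hearts, and fell in both RH/RQ groups against RH/+. It was the single member of the list that fell in each of those comparisons, and both calls were kept when each library was left out. In each of them 1 gene rose. In treated RH/RQ against RH/+ vehicle hearts it was Rhob, lost without treated replicate 1 (adjusted p = 0.206), without RH/+ vehicle replicate 1 (adjusted p = 0.276) and under TMM factors (adjusted p = 0.105). In RH/RQ vehicle against RH/+ vehicle hearts it was Flna, the actin crosslinker filamin A, lost when any of the 4 libraries was left out, with adjusted p between 0.109 and 0.350, and under TMM factors (adjusted p = 0.0610).

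Among 10 tested ligands and receptors of hypertrophic signalling, 1 rose and 1 fell in treated against vehicle RH/RQ hearts, and neither the call of the angiotensin receptor gene Agtr1a (adjusted p = 0.431) nor that of the adrenergic receptor gene Adra1a (adjusted p = 0.185) held without RH/RQ vehicle replicate 2. Agtr1a was also lost without treated replicate 1 (adjusted p = 0.182). Edn3, an endothelin, averaged 8.93 ± 2.15 CPM in treated RH/RQ, 14.4 ± 0.324 CPM in vehicle RH/RQ and 2.48 ± 0.915 CPM in RH/+ vehicle hearts and rose in both RH/RQ groups against RH/+. Agt, the angiotensin precursor, fell to 2.41 ± 0.0191 CPM in treated RH/RQ hearts, against 5.84 ± 0.175 CPM in RH/+ vehicle hearts. Counts against RH/+ vehicle were 2 higher and 1 lower in treated and 3 higher and 0 lower in vehicle RH/RQ hearts. Of these Ace, the angiotensin-converting enzyme, was lost in treated RH/RQ against RH/+ vehicle hearts without treated replicate 1 (adjusted p = 0.113), without RH/+ vehicle replicate 1 (adjusted p = 0.398) and under TMM factors (adjusted p = 0.0918). Ednrb, an endothelin receptor, was lost in RH/RQ vehicle against RH/+ vehicle hearts without RH/RQ vehicle replicate 1 (adjusted p = 0.0735) and without RH/+ vehicle replicate 1 (adjusted p = 0.390).

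The counts of 0 in these lists are from limma, and edgeR and DESeq2 also gave 0 in each of them except in the SRF and immediate early lists as stated. At an unadjusted limma p under 0.05 there were 2 lower hypertrophic genes in RH/RQ vehicle against RH/+ vehicle hearts, 1 lower immediate early gene in each comparison with RH/+ vehicle, 1 higher TGF-beta gene in treated against vehicle RH/RQ hearts, and 1 lower YAP/TAZ target in RH/RQ vehicle against RH/+ vehicle hearts. Extracellular partners had 1 higher in treated against vehicle RH/RQ hearts and 1 lower in RH/RQ vehicle against RH/+ vehicle hearts. The remaining counts of 0 were 0 there too, apart from the SRF list given above.

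**Figure D4:**
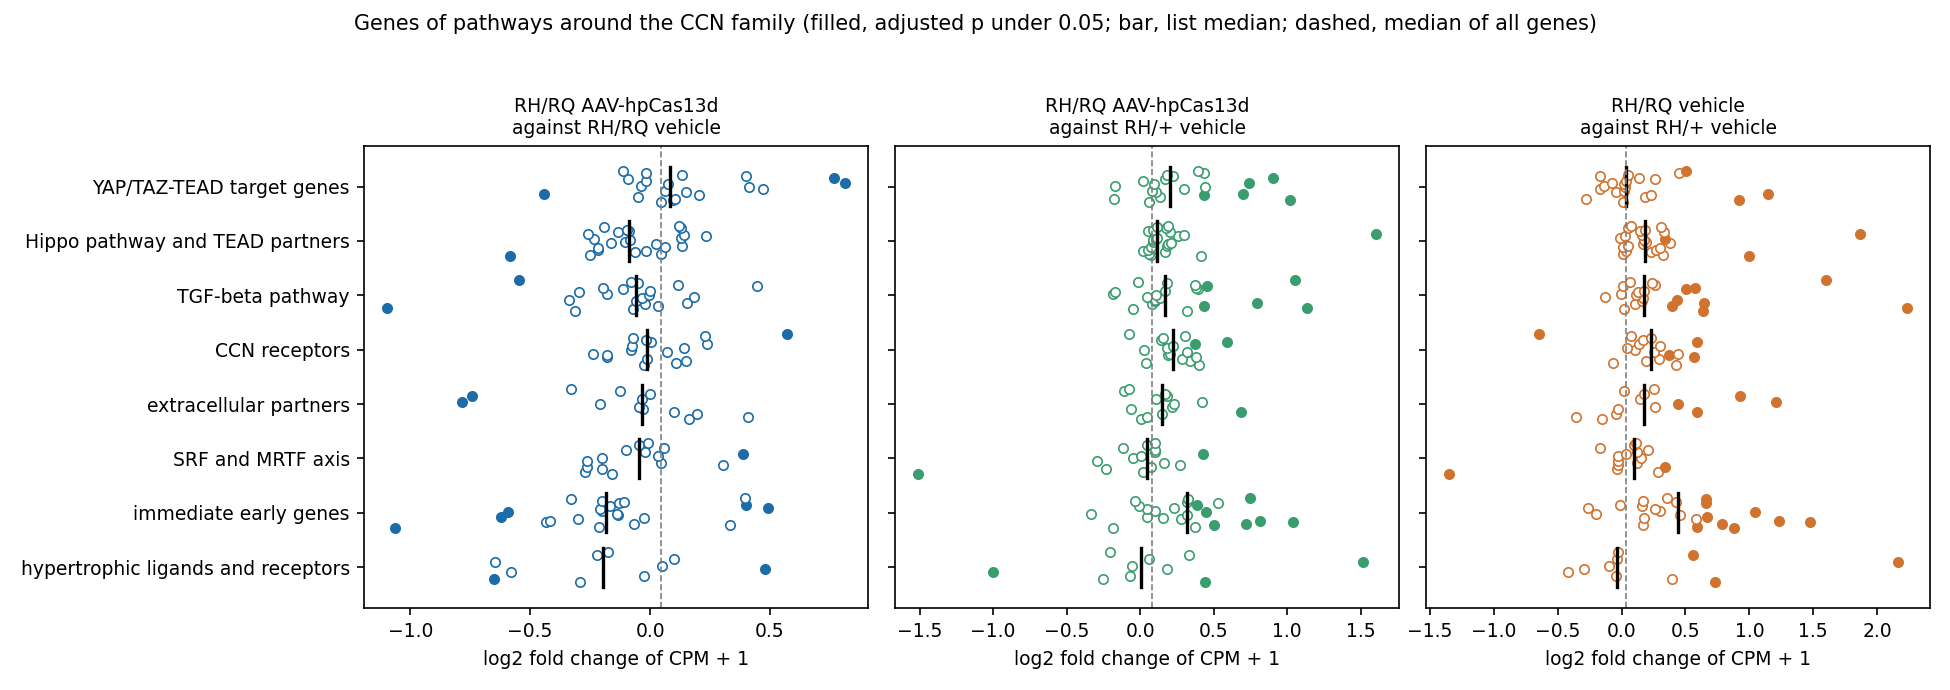
Log2 fold change of CPM + 1 (horizontal axis) of each tested gene in 8 lists of genes around the CCN family, in 3 comparisons, with filled points for an adjusted p under 0.05, a bar for the list median and a dashed line for the median of all genes. In treated against vehicle RH/RQ hearts the list medians lie between -0.20 and 0.08, and the immediate early gene median is -0.18 there and 0.44 in RH/RQ vehicle against RH/+ vehicle hearts.

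Markers of other cells differed between the groups too, in patterns that matched some CCN members and not others. In whole-heart RNA, fewer cells of a type and less RNA per cell cannot be told apart. The 8 markers of activated fibroblasts, the matrix-producing state in which Ccn2 and Ccn4 are known to be raised, summed to 173 and 186 CPM in treated RH/RQ hearts, 243 and 239 CPM in RH/RQ vehicle hearts, and 99.2 and 114 CPM in RH/+ vehicle hearts. Of the 7 tested, 0 rose and 3 fell in treated against vehicle RH/RQ hearts, 4 rose and 0 fell in treated RH/RQ against RH/+ vehicle hearts, and 6 rose and 0 fell in RH/RQ vehicle against RH/+ vehicle hearts, with the same counts of 0 at an unadjusted p under 0.05, by edgeR and by DESeq2. That sum was highest in the RH/RQ vehicle libraries, as was Ccn5, while Ccn2 was highest in the treated libraries, so sum and Ccn2 ran in opposite directions in treated against vehicle RH/RQ hearts. The 12 fibroblast markers summed to 4181 and 3570 CPM in treated RH/RQ hearts, 3607 and 3431 CPM in RH/RQ vehicle hearts, and 2437 and 2891 CPM in RH/+ vehicle hearts. Gsn, which encodes the actin-severing protein gelsolin, gave the most to that sum, with 2267 and 1934 CPM in treated RH/RQ hearts, 1603 and 1550 CPM in RH/RQ vehicle hearts, and 1278 and 1628 CPM in RH/+ vehicle hearts. Of the 12 markers 3, all fibrillar collagen genes, fell in treated against vehicle RH/RQ hearts, with Col3a1 at 102 ± 11.3 CPM in treated and 227 ± 2.22 CPM in vehicle hearts, Col1a1 at 55.9 ± 7.85 CPM in treated and 127 ± 17.0 CPM in vehicle hearts, and Col1a2 at 103 ± 8.07 CPM in treated and 178 ± 10.5 CPM in vehicle hearts (SD, n = 2 each). All 3 calls were kept when each library was left out. By limma 0 of the 12 rose there, with 2 higher at an unadjusted p under 0.05 and 0 by edgeR and by DESeq2. Against RH/+ vehicle hearts 7 of 12 rose in treated and 7 of 12 in vehicle RH/RQ hearts, and 0 fell in either at an adjusted or unadjusted p under 0.05, by edgeR or by DESeq2. Leaving out each library kept 3 of the 7 in treated hearts, Mfap5, Dcn and Lum, and 5 of the 7 in vehicle RH/RQ hearts, the 3 collagen genes with Mfap5 and Lum. The 9 macrophage markers summed to 485 and 402 CPM in treated RH/RQ hearts, 506 and 459 CPM in RH/RQ vehicle hearts, and 380 and 382 CPM in RH/+ vehicle hearts. Of these 9, 4 rose in RH/RQ vehicle against RH/+ vehicle hearts, of which 1, Csf1r, was kept when each library was left out. The part of these cells in the CCN values was not tested.

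The 8 atrial markers summed to 468 and 792 CPM in treated RH/RQ hearts, 142 and 151 CPM in RH/RQ vehicle hearts, and 136 and 171 CPM in RH/+ vehicle hearts, high in the libraries where Ccn2 was high. Most of it was Nppa, the natriuretic peptide gene that stressed ventricles also express, with 428 and 753 CPM in treated RH/RQ hearts, 112 and 117 CPM in RH/RQ vehicle hearts, and 110 and 143 CPM in RH/+ vehicle hearts. The other 7 markers summed to 39.9 and 38.7 CPM in treated RH/RQ hearts, 30.8 and 34.5 CPM in RH/RQ vehicle hearts, and 26.4 and 28.1 CPM in RH/+ vehicle hearts. The defining atrial gene Sln held 4 reads and 1 read in treated RH/RQ hearts and 0 in the vehicle libraries, and Myl7 stayed at or below 0.696 CPM in all 6. Dkk3, another gene of the list, held 18.7 and 21.1 CPM in treated RH/RQ hearts, 10.8 and 16.1 CPM in RH/RQ vehicle hearts, and 8.03 and 10.8 CPM in RH/+ vehicle hearts. It rose in treated RH/RQ against RH/+ vehicle hearts (log2 fold change 1.01, SE 0.17, adjusted p = 0.000745), a call kept when each library was left out, and did not pass in treated against vehicle RH/RQ hearts. The part of atrial tissue in the Ccn2 values was not tested.

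Genes whose pattern over the 6 libraries was most like that of a member, by Pearson r of log2(CPM + 1), were named among 12333 well expressed genes as a description. For Ccn2 they included Psmd13 (r = 0.993), Emc1 (0.986), Cep83 (0.986) and Spg20 (0.984), of 54 genes with an r over 0.95. The measure ignores size: Psmd13 ran only from 65.2 to 69.9 CPM. For Ccn1 they were Lamp1, Fkbp5 and Slc9a5, for Ccn3 Fxr1, Tmem106b and Ccnh, for Ccn4 Desi1, Dlat and Slc37a2, and for Ccn5 Ibtk, Inpp4b and Zfp827. Over 6 libraries in 3 groups such values arise for many genes, with 73 over 0.95 for Ccn1, 27 for Ccn3, 6 for Ccn4 and 50 for Ccn5.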

How the data were processed

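Per the labels' protocols, total heart RNA was enriched for mRNA with poly-T beads. HISAT2, HTSeq, DESeq2 and mm10 are named by the submitters' processing notes, with no versions or roles. The deposited tables hold CPM, which the authors made from gene counts and library totals. The authors' deposited tables also hold log2 fold changes, a mean signal per gene, a test score and p-values, per the file headers. CPM of a library held in 2 tables did not differ between them, and 0 sample columns were left unmatched. Dividing by the value of 1 read gave whole reads in 100% of values (tolerance 0.001). Replicates were no duplicates: chi-square between them averaged 25.8 a gene in treated RH/RQ, 18.3 in RH/RQ vehicle and 13.2 in RH/+ vehicle hearts.

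The main test was limma 3.58.1 (R 4.3.3) with trend on log2(CPM + 1), with library totals only, all 6 libraries, a filterByExpr minimum count of 10 and Benjamini-Hochberg adjustment over all genes tested. Alternatives used edgeR 4.0.16, DESeq2 1.42.0, TMM and RLE factors, CPM over nuclear genes, other filters and pseudocounts, 4 libraries alone, a replicate block and leaving out each library. Ratios of Ccn2 to other members were tested with exact two-sided permutation tests. Members and lists were chosen with earlier results of these data known. All 5 members are named, with at most 4 called genes a list and comparison by smallest p, and the 5 or 3 genes most like a member. Some genes that this rule names are not reported here. Ccn4 rests on the fewest reads, 14 to 62 a library. The limit of 3 reads where no read was counted covers counting error only. The intervals of the fold changes come from the limma SE, which rests on spread between libraries.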

Additional observations from a re-analysis of the deposited data

How the results depend on the processing

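With no filter on low genes, 15, 7 and 57 genes were called in treated against vehicle RH/RQ, treated RH/RQ against RH/+ vehicle and RH/RQ vehicle against RH/+ vehicle hearts, and 0 members in any. Ccn2 then had log2 fold changes of 0.81 (adjusted p = 0.129) and 0.94 (adjusted p = 0.121) in the 2 comparisons with treated hearts. Those fold changes are the same as in the main fit. The SE of Ccn2 was 0.12, against 0.11 in the main fit, and its test had 6.07 degrees of freedom, against 22.4. The cause of the lost calls was not tested. In treated against vehicle RH/RQ hearts, 2 members were lower with CPM over nuclear genes. Leaving out each library gave 1 to 2 higher members and 0 to 2 lower members there, and 1 to 2 higher members in treated RH/RQ against RH/+ vehicle hearts. The direction turned for Ccn5 in treated RH/RQ against RH/+ vehicle hearts, with -0.00163 by DESeq2, -0.014 with TMM factors, -0.015 with RLE factors and -0.10 to 0.25 on leaving out each library. On leaving out each library it turned also for Ccn3 in that comparison (-0.28 to 0.019) and for Ccn4 in RH/RQ vehicle against RH/+ vehicle hearts (-0.024 to 0.33). None of these was called. Ccn2 kept its direction in all 17 alternatives and its call in 16 of them, in each comparison with treated hearts. Its log2 fold changes were 0.63 to 0.98 over RH/RQ vehicle and 0.76 to 1.11 over RH/+ vehicle. Ccn4 had no value with a filter on a mean of 1 CPM.

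The replicate numbers, which go with the leading digit of the sample titles, showed little pairing of the libraries over all tested genes. Deviations from the group means correlated at 0.0742, -0.0205 and 0.130 for the 3 pairs of groups. Such correlations cannot exclude a shared effect on some of the genes. With the replicate block, 567, 715 and 1173 genes were called in the same order, against 344, 480 and 838, and 2 members were lower in treated against vehicle RH/RQ hearts, since Ccn4 then passed (adjusted p = 0.0337).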
